A study of Mus musculus with 4 samples.

Results

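The genes described here encode proteins of the mitochondrial ribosome and were followed in RNA that came down with Cpeb4, an RNA-binding protein that regulates polyadenylation and translation of mRNAs in the cytoplasm. They were taken as every probe set whose gene symbol starts with Mrpl or Mrps followed by a number, with pseudogenes left out and no filter on level. This gave 76 genes of 25206 probe sets, or 0.302%, of which 48 carry an Mrpl and 28 an Mrps symbol. All 76 had the same symbol in the RefSeq gene table. The series consists of 4 Affymetrix arrays of mouse fetal liver cells at E14.5 (the embryonic day), selected with magnetic beads for Ter119, a surface marker of the red cell lineage. 2 arrays hold RNA precipitated with an antibody against Cpeb4 (the IP, 2 biological replicates), 1 holds RNA precipitated with rabbit IgG, and 1 holds total input RNA with no antibody. Strain and genotype are not given in the sources used here, nor is whether the control arrays share a cell preparation with either IP replicate. The comparisons ask which mRNAs were held with Cpeb4 above the IgG background and above their share of the starting RNA.

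The mitochondrial ribosome translates the few mRNAs that the mitochondrial genome encodes, all of them for subunits of the respiratory chain and the ATP synthase. Its RNAs come from mitochondrial DNA, while all its proteins are encoded in the nucleus, translated in the cytosol and imported. Many have counterparts in the bacterial ribosome, and the others are particular to mitochondria. Erythroblasts need mitochondria for heme synthesis and clear them as they mature.

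The labelled cell type was borne out by its markers on the input array. Of 10 erythroid markers, 8 had a probe set, with log2 expression values from 9.48 to 12.2 in input. Markers of other cells were lower there, with medians of 4.21 for 6 hepatocyte, 4.57 for 7 macrophage, 6.53 for 7 neutrophil and 6.97 for 5 megakaryocyte genes. In the IP the medians of these 4 lists were 5.94, 6.35, 7.53 and 8.90 in replicate 1 and 6.06, 6.67, 7.57 and 9.09 in replicate 2, and on the IgG array 4.58, 5.23, 7.27 and 8.65. The erythroid median was 10.95 in input, 10.45 in IgG and 10.22 and 10.26 in the IP. By limma, 4 of 5 tested hepatocyte, 5 of 7 macrophage, 6 of 7 neutrophil and 5 of 5 megakaryocyte markers rose in the IP over input, while 4 of 8 erythroid markers fell and none rose. Of all tested genes 10.2% rose and 15.9% fell against input, and 36.1% rose and 21.2% fell against IgG. Over IgG, 4 of 5 hepatocyte, 4 of 7 macrophage, 4 of 7 neutrophil and 3 of 5 megakaryocyte markers rose. Against IgG 1 macrophage marker, C1qa (-0.67), and 1 erythroid marker, Epb42 (-0.44), fell, and no erythroid marker rose. These shifts accompany every comparison of the IP with either control below, and their part in it was not tested. A difference between a precipitate and a control cannot by itself be read as a difference in cell number or in RNA per cell.

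No mitochondrial ribosomal protein gene rose over input in the IP by the test, and most lay between the controls. A gene was tested when its mean over the 4 arrays reached a log2 value of 3.84, which 74 of the 76 did, and it is said to rise or fall where limma gave an adjusted p below 0.05. Against input 0 of 74 rose and 31 fell, where 10.2% and 15.9% of all 13911 tested genes did. Against IgG 41 rose and 2 fell, where 36.1% and 21.2% of all tested genes did. Both IP replicates lay above IgG and below input for 43 of the 74, or 58.1%, against 22.2% of all tested genes. That share moves with expression level: among genes with a mean of 6 or more it was 30 of 47 and 37.9%. After quantile normalization of the arrays again it was 31 of 74 and 19.3%.

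The absence of rises over input held at an unadjusted p below 0.05 as well, where limma again gave 0 members above input and 46 below. With limma's default prior 14 genes fell in place of 31, 10 of them among the 31. With that prior 1 gene rose over input, Mrps16, by 0.26 on the log2 scale (adjusted p = 0.0197), and with a spread common to genes of like expression none did. The median difference of the 74 genes from input was -0.65 in replicate 1 and -0.50 in replicate 2, and with the replicates averaged it was -0.63, where the median of all tested genes was -0.01. The median difference from IgG was 0.47 in replicate 1, 0.58 in replicate 2 and 0.49 for their mean, where all tested genes had 0.08. Both controls were single arrays, so the spread behind each test comes from the 2 IP replicates alone.

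**Figure D1:**
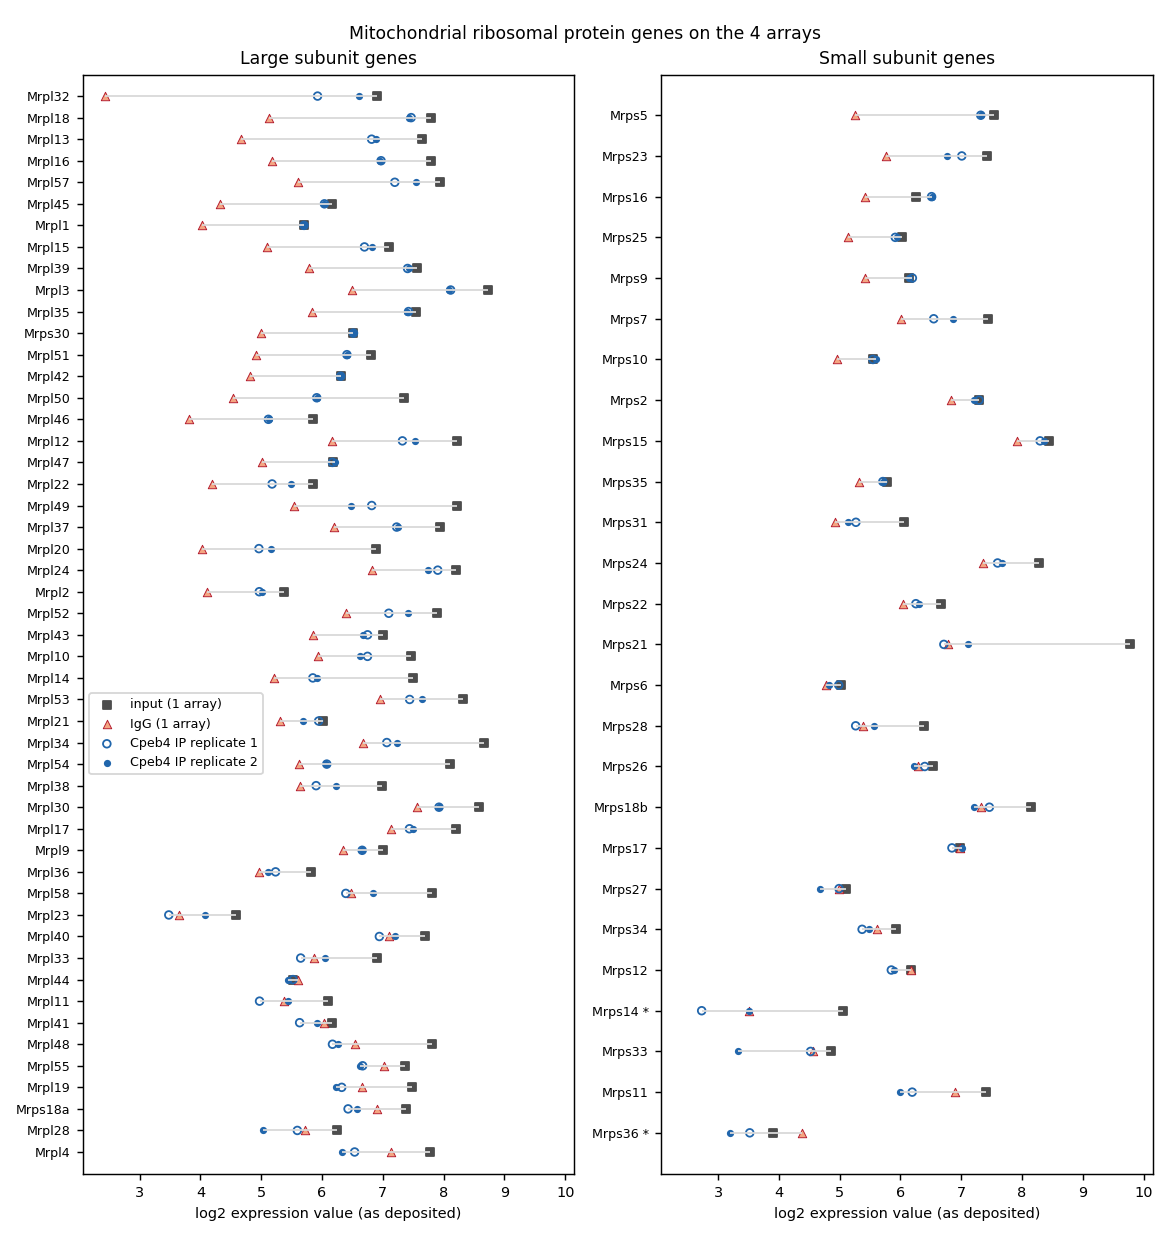
Deposited log2 expression values of the 76 genes on each array, with large subunit genes on the left and small subunit genes on the right, ordered by IP mean minus IgG. Squares are input, triangles IgG and circles the IP replicates (open for replicate 1, filled for replicate 2), and a star marks the 2 genes below the level for testing; in 43 tested genes the circles lie between the triangle and the square.

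By size alone the picture was the same in direction. At least 2-fold below input in both replicates were 11 genes, or 14.9% of the 74, against 5.18% of all tested genes, and 0 were at least 2-fold above it, against 4.04%. At least 2-fold above IgG were 21 genes, against 18.6% of all tested genes, and 0 were at least 2-fold below it, against 6.24%. No gene of the 74 was 2-fold above both controls or 2-fold below both, where 2.49% and 0.503% of tested genes were. After quantile normalization of the arrays again 1 gene, Mrpl4, was 2-fold below both. Of the 74, 14 rose against IgG and fell against input, 27 rose against IgG only by the test, 15 fell against input without passing against IgG, 2 fell against both and 16 passed in neither comparison.

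**Figure D2:**
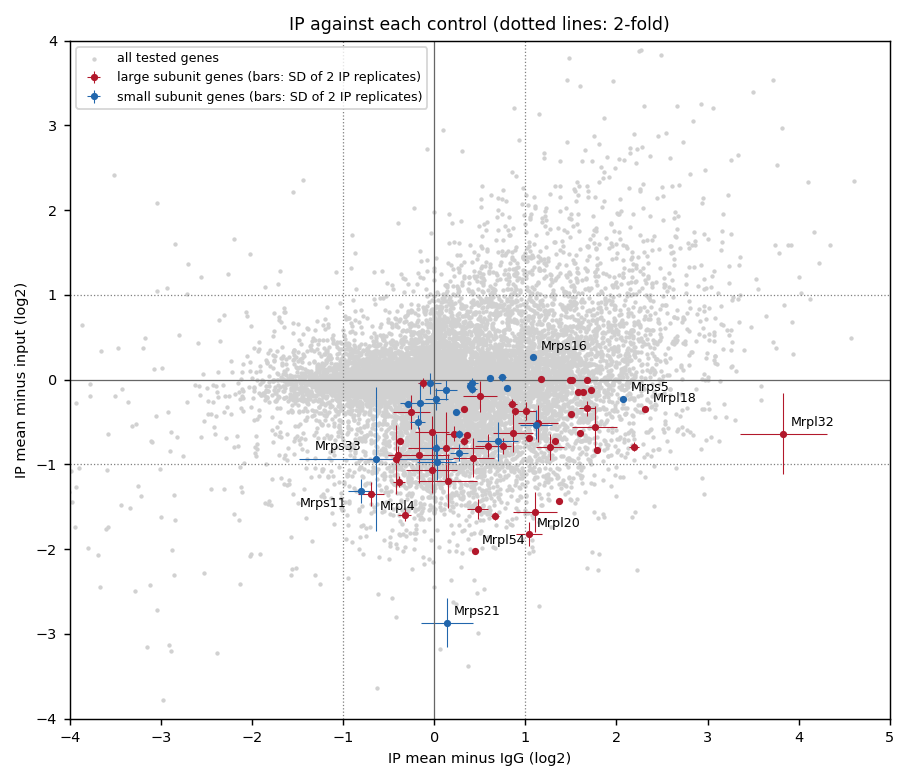
Difference of the IP mean from IgG (horizontal) and from input (vertical), both on the log2 scale, for large subunit genes (red) and small subunit genes (blue) over all 13911 tested genes (grey). Bars give the SD of the 2 IP replicates, and grey points beyond the axes are not drawn; no coloured point lies beyond the dotted 2-fold line above input, and 1 point, Mrps21, lies far below it at -2.87.

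The largest fall against input was that of Mrps21, a counterpart of a bacterial protein of the small subunit platform. Its log2 value was 9.78 in input, 6.78 in IgG and 6.71 and 7.12 in the IP replicates. The input array thus stood alone, while the IP replicates lay on either side of IgG. The IP mean was 2.87 below input (SE 0.21, limma adjusted p = 0.00905) and 0.14 above IgG (limma adjusted p = 0.625). After quantile normalization of the arrays again both IP replicates lay below IgG, with a difference of -0.56.

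Mrpl54, a mitochondria-specific protein at the stalk of the large subunit, had 8.10 in input, 5.63 in IgG and 6.08 and 6.06 in the IP. It fell by 2.03 on the log2 scale against input (SE 0.12, limma adjusted p = 0.00905) and rose by 0.45 over IgG. Mrpl20, whose bacterial counterpart is needed early in large subunit assembly in Escherichia coli, had 6.88 in input, 4.02 in IgG and 4.96 and 5.16 in the IP. It fell by 1.82 against input and rose by 1.04 over IgG, so both IP replicates lay between well separated controls.

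Mrpl14, a protein of the face that meets the small subunit, had 7.49 in input, 5.21 in IgG and 5.85 and 5.91 in the IP, and fell by 1.61 against input. Mrpl48, of the central protuberance, had 7.82 in input, 6.54 in IgG and 6.17 and 6.27 in the IP, and fell by 1.60. For Mrpl48 the IP replicates were also below IgG, a difference of -0.32 that did not pass (limma adjusted p = 0.0914). The other 6 genes at least 2-fold below input in both replicates were Mrpl49 (-1.57), Mrpl34 (-1.52), Mrpl50 (-1.43), Mrpl4 (-1.35), Mrps11 (-1.32) and Mrpl19 (-1.21), and all 6 passed the test.

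The genes at the other end of the comparison with input stood level with it. Mrps16, a counterpart of a protein of the bacterial small subunit body, had 6.25 in input, 5.42 in IgG and 6.51 in both IP replicates. In the deposited values it was the only tested gene of the 74 with both replicates above input, by 0.26, and did not pass (limma adjusted p = 0.199). The next 4 were Mrps9 (0.03), Mrps10 (0.02), Mrpl47 (0.01) and Mrpl1 (0.00), none of which passed. After quantile normalization of the arrays again other genes also had both replicates above input. Among them was Mrps30, with 6.30 in input and 6.43 and 6.40 in the IP, and 0 of the 74 then rose by the test. The deposited values contain exact ties. In 8 of the 74 genes (10.8%) the IP replicates were equal, against 21.8% of all tested genes, and in 7 an IP replicate was equal to input, among them Mrpl1 and Mrpl42, where both were.

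Of the genes that rose over IgG, Mrpl32 is a counterpart of a bacterial large subunit protein whose maturation by a mitochondrial protease is needed for ribosome assembly in yeast and mouse. Its log2 value was 6.90 in input, 2.43 in IgG and 5.93 and 6.60 in the IP. The IgG value was the only one of the 74 under the 10th percentile of that array (2.72), and the files give no detection call. The fitted difference of 3.83 from IgG (limma adjusted p = 0.00221) therefore has no firm size or rank. The IP mean was 0.64 under input, which did not pass (limma adjusted p = 0.238).

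Mrpl18, of the central protuberance, had 7.80 in input, 5.13 in IgG and 7.47 and 7.42 in the IP, and rose by 2.31 over IgG. Mrpl13 had 7.64, 4.66, 6.82 and 6.89 in the same order, and rose by 2.20. Mrps5, which in bacteria lies beside the path of the mRNA, had 7.54 in input, 5.25 in IgG and 7.32 in both IP replicates, and rose by 2.07. In these genes the IgG array stood apart from the other 3, which lay within 1 log2 unit of each other. Mrpl16, beside the peptidyl transferase centre where peptide bonds are made, rose by 1.79, from 5.17 in IgG to 6.97 and 6.95 in the IP, and fell by 0.83 against input.

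The lowest differences from IgG were those of Mrps11 and Mrpl4, the only 2 of the 74 that fell against IgG, and both fell against input too. Mrps11, a platform protein of the small subunit, had 7.41 in input, 6.90 in IgG and 6.19 and 6.0 in the IP. It was 0.81 below IgG (SE 0.14, limma adjusted p = 0.0121) and 1.32 below input. Mrpl4, whose bacterial counterpart reaches from near the peptidyl transferase centre into the tunnel wall and which is counted with the centre here, had 7.78 in input, 7.13 in IgG and 6.54 and 6.33 in the IP, and fell by 0.69 against IgG (limma adjusted p = 0.0188). Both IP arrays lay under both controls for these 2 genes. With limma's default prior neither fell against IgG.

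The next lowest were Mrps33 (-0.64), Mrpl28 (-0.41) and Mrps18a (-0.40), none of which passed. Mrps33 had the widest spread between IP replicates of the 74, with values of 4.52 and 3.33 (SD 0.84, against a median SD of 0.08), and 4.86 in input and 4.56 in IgG. In Mrps33 replicate 1 was level with IgG and replicate 2 lay more than 1 log2 unit under every other array.

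Proteins of the large subunit, in which mammalian ribosome structures also place Mrps30 and Mrps18a, numbered 50, all tested. Against IgG 31 rose and 1 fell, and their median difference was 0.86. Against input 25 fell and none rose, with a median of -0.67. Of the 26 genes of the small subunit 24 were tested. Against IgG 10 rose and 1 fell, with a median of 0.25, and against input 6 fell and none rose, with a median of -0.28. As shares, 62% of large and 41.7% of small subunit genes rose against IgG, where 36.1% of all tested genes did. Against input 50% and 25% fell, where 15.9% of all tested genes did. These counts and medians, and those by descent below, are for the deposited values and were not computed again after quantile normalization. More of the tested small subunit genes then lay below IgG than above it, so the sign of their median against IgG depends on the scaling. The difference between the subunits was not tested.

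The split by descent gave a smaller contrast than the split by subunit. Against input the medians were -0.73 for 29 large subunit genes with a bacterial counterpart and -0.63 for 21 mitochondria-specific ones, with 15 and 10 falls. In the small subunit they were -0.17 for 14 genes with a counterpart and -0.44 for 10 without, with 4 and 2 falls. Against IgG the same 4 classes had 17, 14, 7 and 3 rises, and medians of 0.75, 0.86, 0.34 and 0.13. Over all tested genes 36.1% rose against IgG and 15.9% fell against input.

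**Figure D3:**
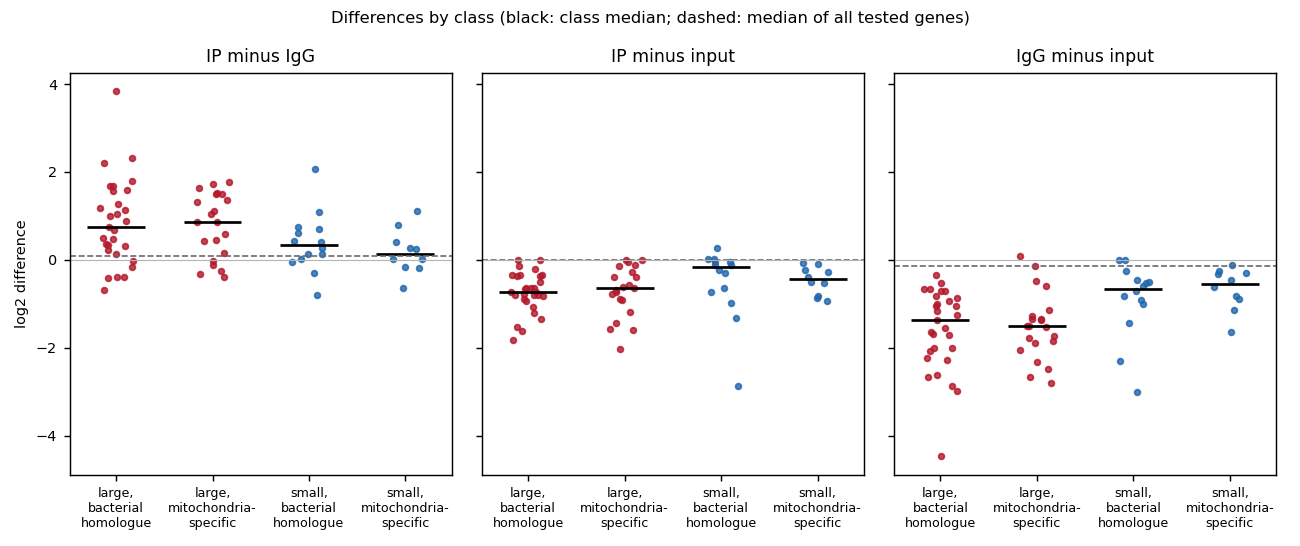
Log2 differences of the 74 tested genes for IP minus IgG, IP minus input and IgG minus input, by subunit and by whether a bacterial counterpart is known. Points are genes, black lines class medians and dashed lines the median of all tested genes; against input the class medians run from -0.73 to -0.17, all below the dashed line at -0.01.

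The counts by place in the ribosome stand beside 36.1% rises and 21.2% falls against IgG over all tested genes. Against input the shares over all tested genes were 10.2% and 15.9%. Within the large subunit the stalk recruits translation factors. Of its proteins Mrpl10, Mrpl11, Mrpl12, Mrpl53 and Mrpl54, 4 rose against IgG and 4 fell against input, the exception in both being Mrpl11 (-0.17 and -0.89). After quantile normalization of the arrays again Mrpl53 stood at -0.15 and Mrpl54 at 0.08 from IgG, and neither passed. Mrpl12, which forms the flexible stalk and also binds the mitochondrial RNA polymerase, had 8.22 in input, 6.16 in IgG and 7.32 and 7.54 in the IP. It rose by 1.27 over IgG and fell by 0.79 against input. Mrpl10, which holds Mrpl12 on the ribosome, rose by 0.75 and fell by 0.79, and Mrpl53 rose by 0.59 and fell by 0.78.

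Around the peptidyl transferase centre 4 genes were measured, and of these Mrpl2, Mrpl3 and Mrpl16 rose against IgG, by 0.89, 1.60 and 1.79. Mrpl3, Mrpl4 and Mrpl16 fell against input. Mrpl3 had 8.73 in input, 6.50 in IgG and 8.12 and 8.08 in the IP. At the peptide exit tunnel 4 of 6 genes rose against IgG and 1, Mrpl17, fell against input. Mrpl45, which anchors the mitochondrial ribosome to the inner membrane, had 6.16 in input, 4.32 in IgG and 6.04 in both IP replicates, and rose by 1.72 over IgG. It differed from input by -0.13 and did not pass, and the other rises over IgG at the tunnel were Mrpl47 (1.17), Mrpl22 (1.14) and Mrpl24 (1.00). The tunnel genes Mrpl17 (0.33) and Mrpl23 (0.13) did not pass against IgG.

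Of 6 genes of the central protuberance, where tRNAs are contacted, 2 rose against IgG (Mrpl18 and Mrpl46) and 4 fell against input. Mrpl58, a peptidyl-tRNA hydrolase built into the ribosome, had 7.81 in input, 6.47 in IgG and 6.39 and 6.84 in the IP. It fell by 1.20 against input, and its replicates lay on either side of IgG. Mrpl38 fell by 0.92 against input, and Mrpl40 (-0.62) did not pass.

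The small subunit is described by its head, body and platform. Of the 4 tested head genes Mrps7, Mrps9 and Mrps10 rose against IgG, by 0.70, 0.74 and 0.61, and Mrps24 fell against input by 0.65. Of 5 body genes Mrps5, Mrps15 and Mrps16 rose against IgG, and none of the 5 passed against input. The rise of Mrps15 turned under another scaling, given below. Mrps12, a body protein at the decoding site, had 6.16 in input and in IgG and 5.85 and 5.90 in the IP, and its difference of -0.29 from each control did not pass. Mrps17, also of the body, had 6.98 in both controls and 6.85 and 7.02 in the IP. Of the 3 platform genes on the array Mrps11 and Mrps21 fell against input and Mrps6 (-0.12) did not pass.

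Mrps18a and Mrps18b come from 1 gene family with a single bacterial counterpart, and Mrps18a sits in the large subunit. Both are counted among the mitochondria-specific genes here. Mrps18a had 7.39 in input, 6.90 in IgG and 6.43 and 6.58 in the IP, and Mrps18b had 8.15, 7.32, 7.46 and 7.22 in the same order. Both fell against input, by 0.88 and 0.81, and neither passed against IgG (limma adjusted p = 0.0649 and 0.973).

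Below the level for testing were Mrps14 and Mrps36. Mrps14, a protein of the head, had 5.06 in input, 3.50 in IgG and 2.73 and 3.50 in the IP, so that input stood above the other 3 arrays. In the fit with no filter it fell by 1.94 against input (limma adjusted p = 0.0253). Mrps36, since assigned to the oxoglutarate dehydrogenase complex, had 3.91 in input, 4.38 in IgG and 3.52 and 3.20 in the IP. It was 1.02 below IgG in that fit (limma adjusted p = 0.0105).

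In the deposited values the single IgG array was itself far from input for most of these genes. Of the 74, 71 were lower in IgG than in input, where 54.7% of all tested genes were, and their median difference was -1.15 against -0.15. The gap was smaller at higher expression: among genes with a mean of 6 or more the medians were -1.37 for 47 of these genes and -0.85 for all. At least 2-fold lower in IgG were 42, or 56.8%, against 23.9% of all tested genes, and 0 were at least 2-fold higher, against 7.93%. At a mean of 6 or more it was 31 of 47 and 42.8%. After quantile normalization of the arrays again 29 of the 74 were at least 2-fold lower in IgG, against 13.5% of all tested genes. Some then lay above input in IgG, among them Mrps17 (0.87) and Mrps12 (0.66). The ends that follow are for the deposited values. The lowest were Mrpl32 (-4.47, of no firm size since its IgG value is near the floor), Mrps21 (-3.01), Mrpl13 (-2.98), Mrpl20 (-2.86) and Mrpl50 (-2.81). The highest were Mrpl44, which has a fold of the ribonuclease III type (0.09), Mrps12 and Mrps17 (0.00 each), Mrps27, a protein with pentatricopeptide repeats (-0.12), and Mrpl41 (-0.14). With 1 array on each side this comparison has no replicate check.

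Values were less spread out on the IgG array. Over genes with a symbol their SD was 1.74 there, 2.15 on the input array, and 2.07 and 2.09 on the IP arrays. The expression level of a gene also went with its difference from IgG, and whether the narrower spread accounts for this was not tested. Among the 6115 tested genes with a mean of 6 or more over the arrays, 61.5% rose over IgG and 26.1% fell against input, and of the 47 mitochondrial ribosomal protein genes among them 27 rose over IgG and 25 fell against input. The medians for these 47 were 0.48 against IgG, where the 6115 genes had 0.68, and -0.66 against input, where they had -0.11. At that level their position over IgG was thus not above that of other genes, while their position under input was lower. The level of 6 was chosen after the values were seen.

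Quantile normalization of the 4 arrays again, which gives them 1 distribution, moved the median of all tested genes in IgG minus input from -0.15 to -0.01. Against IgG it left 29 of the 74 genes above and 19 below, in place of 41 and 2, while over all tested genes the shares became 31.2% and 30.7%. The median of the 74 against IgG became 0.25, against 0.02 for all tested genes. Of the 41 rises 4 then had a difference below 0, those of Mrpl34 (-0.21), Mrpl53 (-0.15), Mrps2 (-0.30) and Mrps15. Mrps15 turned from a rise of 0.42 (limma adjusted p = 0.0442) to a fall, with a difference of -0.28 (limma adjusted p = 0.0454). Mrpl4, Mrpl55, Mrps11 and Mrps18a were then at least 2-fold below IgG in both replicates. Against input 0 rose and 21 fell, where 10.4% and 10.8% of all tested genes did, and all 21 were among the 31 that fell before, with a median of -0.46 against -0.03 for all tested genes.

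**Figure D4:**
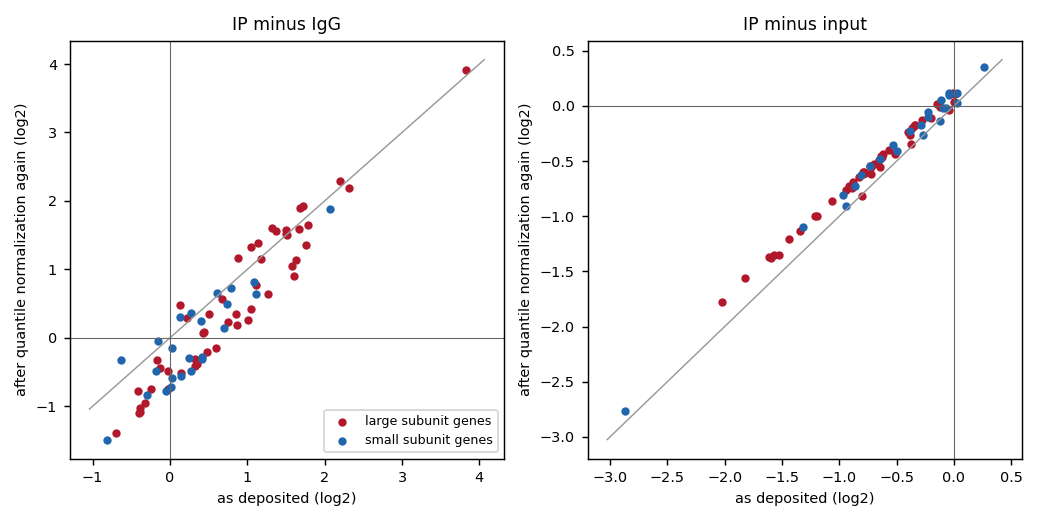
Log2 differences of the 74 tested genes as deposited (horizontal) and after quantile normalization of the arrays again (vertical), for IP minus IgG (left) and IP minus input (right). Points on the diagonal did not move; against IgG 19 genes were called below after it in place of 2, and against input 21 in place of 31.

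Other genes of mitochondrial gene expression, from lists chosen with earlier results of these data known, were read in the same way. Their counts stand beside 36.1% rises and 21.2% falls against IgG over all tested genes. Against input those shares were 10.2% and 15.9%. Of 4 tested mitochondrial ribosomal proteins with other names, 2 rose against IgG and 3 fell against input: Ptcd3 (0.79 and -0.75) and Dap3 (0.51 and -0.54) did both, and Gadd45gip1 (-0.20 and -0.91) fell against input alone. Of 14 mitochondrial translation factors 9 rose against IgG, 3 fell against input and none rose over it. Slirp, an RNA-binding partner of Lrpprc that stabilises mitochondrial mRNAs, had 6.31 in input, 2.60 in IgG and 5.70 and 5.48 in the IP. Its IgG value also lay under the 10th percentile of that array, so the fitted difference of 2.99 has no firm size, and it fell by 0.72 against input. The initiation factor Mtif2 rose by 1.60 over IgG, and the lowest 2 against IgG, the elongation factor Tufm (-0.29) and the initiation factor Mtif3 (-0.25), did not pass. Against input the ends were Guf1 (0.46) and Tufm (0.09), which did not pass, and Mtif3 (-1.21) and the release factor Mtrf1l (-1.09), which fell.

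Of 27 genes of mitochondrial ribosome assembly and rRNA modification 8 rose and 3 fell against IgG, and 1 rose and 7 fell against input. The shares over all tested genes were 36.1% and 21.2% against IgG, and 10.2% and 15.9% against input. Gtpbp10, a GTPase of large subunit assembly, was the 1 gene of these pathway lists at least 2-fold above both controls in both replicates, with 5.83 in input, 5.43 in IgG and 6.94 and 7.27 in the IP. It rose by 1.28 over input and 1.67 over IgG. C1qbp was 1.68 over IgG and 0.44 over input, the latter not past the test. Mrm1, a methyltransferase of the mitochondrial large rRNA, fell by 1.75 against input and 0.75 against IgG, Eral1 fell by 1.25 against input, and Rpusd3 and Mettl17 fell by 1.00 and 0.83 against IgG. Of 9 genes of mitochondrial DNA replication and transcription 2 rose and 2 fell against IgG and 2 fell against input. Tfam (1.24) and Mgme1 (0.97) were highest against IgG and Ssbp1 (-1.05) and Polg2 (-0.51) lowest, and all 4 passed. Against input Tfb2m (-1.12) and Ssbp1 (-1.03) were lowest and fell, while Twnk (0.10) and Tfam (0.09) were highest and did not pass.

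Cytosolic ribosomal protein genes and nuclear genes for subunits of respiratory complex I were set beside these genes. That complex also has subunits translated in mitochondria, which are not in the list. Of 58 cytosolic ribosomal protein genes on the array 45 reached the level for testing, and of 32 complex I genes 31 did. Of the 45 cytosolic ribosomal protein genes 7 rose and 4 fell against input, with a median of -0.05. Against IgG 16 of them rose and 9 fell, with a median of 0.08. Of 31 tested complex I genes 1 rose and 17 fell against input, with a median of -0.68, and 21 rose and none fell against IgG, with a median of 0.89. Over all tested genes 10.2% rose and 15.9% fell against input, and 36.1% rose and 21.2% fell against IgG. Against input the mitochondrial ribosomal protein median of -0.63 lay nearer that of complex I. The lists were not matched for expression level, and whether they differ was not tested.

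Promoter sequences were read from the RefSeq table of windows from 250 bases before to 50 after each start (GRCm38.p6), in which 67 of the 76 were found, with 73 windows. The letters CCGGAAG, a core bound by ETS factors such as the nuclear respiratory factor GABP, were present on either strand in 32.9% of these windows and in 8.86% of all 32851. AAGATGGC, a core of the YY1 motif, was in 16.4% and 2.75%, and GCGCA followed by its reverse complement, a sequence bound by NRF1, in 4.11% and 0.971%. TATAAA was in 6.85% of the windows and 13.6% of all. The 4 motifs do not contain each other, and a match is a description, not a binding site.

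In 18 pairs a gene of the group and another gene start head to head, with at most 300 bases between their starts, and both genes of all 18 were tested. Such genes can share a promoter. The stretches between the starts of 4 pairs are shown as a description, and whether they bear on the values in the precipitates was not tested. The stretches are given on the strand of the first gene named, with the ETS or NRF1 letters above in capitals. They lie at chr7:78783090-78783130 (plus strand), chr19:45006443-45006557 (minus strand), chr13:99344679-99344785 (plus strand) and chr13:14613038-14613241 (minus strand), in this order.
Mrps11 and Mrpl46: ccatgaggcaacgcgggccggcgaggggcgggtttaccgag
Mrpl43 and Twnk: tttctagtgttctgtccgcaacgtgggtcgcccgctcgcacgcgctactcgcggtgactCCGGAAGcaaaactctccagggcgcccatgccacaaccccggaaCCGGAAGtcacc
Mrps27 and Ptcd2: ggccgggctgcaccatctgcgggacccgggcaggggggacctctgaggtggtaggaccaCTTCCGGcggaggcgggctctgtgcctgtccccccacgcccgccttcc
Mrpl32 and Psma2: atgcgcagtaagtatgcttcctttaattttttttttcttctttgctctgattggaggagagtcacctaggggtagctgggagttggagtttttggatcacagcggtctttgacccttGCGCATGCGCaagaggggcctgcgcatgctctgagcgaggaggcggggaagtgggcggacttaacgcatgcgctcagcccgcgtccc

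Against IgG both genes rose in 4 of the 18 pairs (Mrpl18 and Tcp1, Mrpl57 and Ska3, Mrpl14 and Tmem63b, Mrpl32 and Psma2), and 2 pairs had opposite calls. The first gene alone passed in 5 pairs, the second alone in 4 and neither in 3. Against input both genes fell in 3 pairs, the first alone in 4 and the second alone in 1, and neither passed in 10. Of all tested genes, paired or not, 36.1% rose and 21.2% fell against IgG, and 15.9% fell against input. Neither the share of all genes that start head to head nor the joint calls of other such pairs were counted.

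Mrps11 and Mrpl46 have 41 bases between their starts, with none of the 4 motifs there. Against IgG the 2 genes went opposite ways. Mrps11 fell by 0.81, while Mrpl46, of the central protuberance, had 5.84 in input, 3.80 in IgG and 5.12 and 5.13 in the IP, and rose by 1.32. Both fell against input, Mrpl46 by 0.72. Mrpl43 rose by 0.86 over IgG, and its partner Twnk, the mitochondrial DNA helicase, differed by 0.43 and did not pass. Mrps27 differed by -0.15 from IgG and did not pass, while Ptcd2 rose by 1.15. Mrpl32 and Psma2, a proteasome subunit, both rose, Psma2 by 0.91. Mrpl49 rose by 1.11 over IgG where Fau, which encodes a cytosolic ribosomal protein, fell by 0.53, and both fell against input, by 1.57 and 0.85. Whether the genes of a pair differ from each other was not tested.

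**Figure D5:**
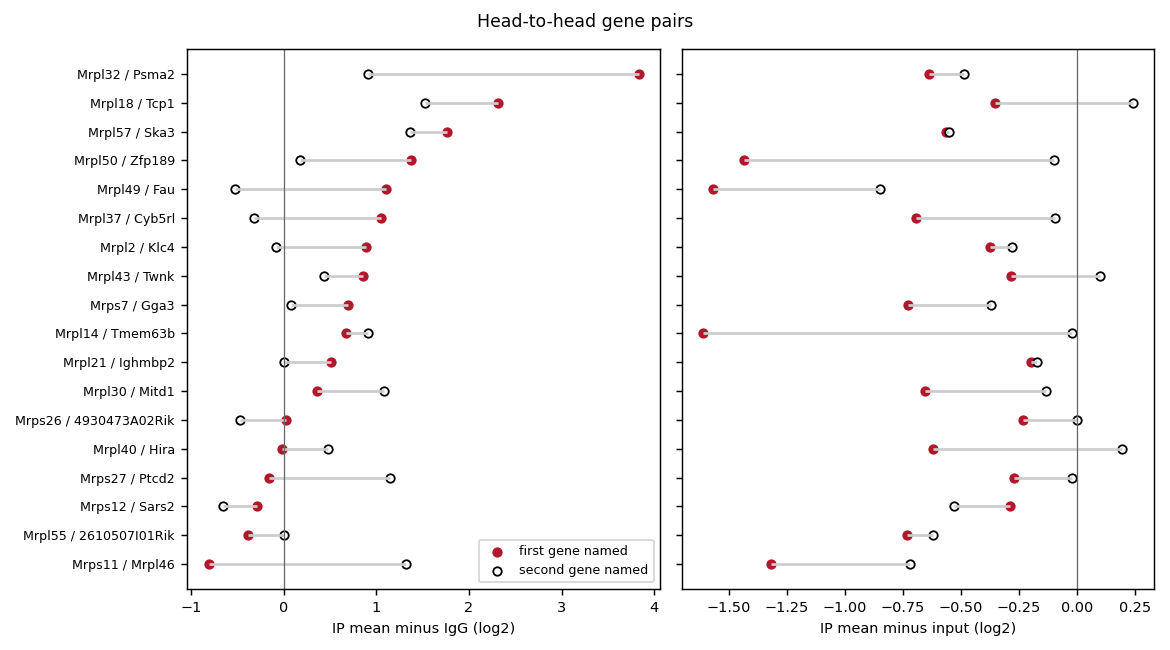
IP mean minus IgG (left) and minus input (right), on the log2 scale, for the 18 head-to-head pairs, ordered by the first gene's difference from IgG. Filled circles are the first gene named and open circles the second; the Mrps11 and Mrpl46 circles lie at -0.81 and 1.32 on the left.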

How the data were processed

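Each array was deposited as a column of log2 values with a single value for every probe set. The submitters' processing notes name RMA and the affy package; versions, probe definitions, filters and scaling are not given in the sources used here. Probe sets are named by Entrez gene number. Through the platform annotation 23185 of the 25206 probe sets received 1 symbol and 2021 none. No detection calls or build were given.

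The level for testing was the 40th percentile, over named genes, of the mean of the 4 arrays, which kept 13911 genes. Differences were fitted with limma 3.58.1 in R 4.3.3 (3 groups, 1 residual degree of freedom), with Benjamini-Hochberg adjustment over all tested genes. RMA can give equal values on different arrays, and in 3032 tested genes the IP replicates were equal (within 1e-09). With these in, limma's default prior SD was 0.00621 with 0.418 degrees of freedom, so the prior was estimated from the other genes (prior SD 0.11, 3.07 degrees of freedom). Both were run on simulated data with such ties, in which the single control arrays were given the same spread as the IP replicates. That simulation cannot show how the tests behave where the controls vary in another way. IgG and input were compared by size only. SE values come from this fit. Each p-value sets a difference against the spread between the 2 IP arrays, moderated with the prior. For genes with equal IP replicates the prior alone gives that spread. Variation between control arrays enters no p-value. The number of arrays limits the precision.

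Genes named were the 5 highest and 5 lowest per difference, members by place in the ribosome, and the 2 highest and 2 lowest of other lists. Further genes were named where counts were small or in head-to-head pairs, after their values were seen. The members and lists were chosen with earlier results of these data known. Whole-group counts and medians were computed again without the level filter, with it at the 60th percentile, and after quantile normalization of the arrays. Calls were also made with limma's default prior and with a common spread by twentieth of expression with a normal distribution. Counts by size were made at 1.5- and 4-fold thresholds, and counts by size and medians with each IP replicate left out. The 52 differences of single named genes were computed again after quantile normalization and with each IP replicate left out. Counts by subunit, descent, place in the ribosome, other list and head-to-head pair were not computed again. Aurkaip1, Mrpl27 and Mrps18c were not analysed here.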

Additional observations from a re-analysis of the deposited data

How the results depend on the processing

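Of the 74 tested genes, the number called below IgG was 2 as reported, 5 with the 60th percentile filter, 6 with the common spread, 0 with limma's default prior and 19 after quantile normalization again. Limma's default prior gave 1 gene above input in place of 0 and 14 below it in place of 31. After quantile normalization again 4 genes were at least 2-fold below IgG, and the medians became 0.25 for IP minus IgG, -0.46 for IP minus input and -0.66 for IgG minus input. In genes with a mean of 6 or more, an alternative added after the data were seen, the median of IgG minus input was -1.37, where all genes at that level had -0.85. At a 1.5-fold threshold 34 genes were above IgG, 2 below it and 32 below input in both replicates, and at 4-fold 4 were above IgG and 2 below input. Leaving out an IP replicate gave 0 to 1 genes 2-fold below IgG, 13 to 17 genes 2-fold below input, and medians of 0.47 to 0.58 against IgG and -0.65 to -0.50 against input. The 17 genes came without replicate 2. The limma calls could not be computed without a replicate, since no residual degree of freedom is left. No paired analysis was possible because each control had 1 array. Of 52 differences of single named genes, quantile normalization again took 6 past the threshold, all of them below IgG, and 1, Mrpl54 against IgG, below it (0.08). The cause of these changes was not tested.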
